A study of Mus musculus with 20 samples.

Results

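Long CDR3α are the TCRα junctions of 16 or more residues, counted from the conserved cysteine of the V gene to the phenylalanine or tryptophan of the J gene. They were chosen by length alone among in-frame TCRα clones of sorted CD8 T cells, that is, clones whose CDR3α holds neither a frameshift nor a stop codon. Across 17 mice there were 13061 distinct long CDR3α among 89720 distinct CDR3α. Counted as clonotypes, a clonotype being 1 combination of CDR3α, V gene and J gene in 1 mouse, 18313 of 197526 were long. The longest CDR3α held 34 residues and was found in WT mouse 3, and 97.9% of long CDR3α ran from cysteine to phenylalanine or tryptophan.

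The mice were males on a C57BL/6 background, 9 to 12 weeks old. WT mice (n = 4) carry both β5i (Psmb8), a catalytic subunit of the immunoproteasome, and β5t (Psmb11), a catalytic subunit that cortical thymic epithelial cells put into the thymoproteasome in its place. β5i-KO mice (n = 5) lack β5i, and β5t-KO mice (n = 4) lack β5t. In BIT mice (n = 4) the β5t coding sequence was placed at the Psmb8 locus, so that β5t is made where β5i would be, and β5i is not. The study made several BIT lines and reported mainly on 1 of them. From each mouse 1000000 CD8 T cells (TCRβ high, CD4-, CD8+) were sorted to a purity over 98%, from lymph nodes according to the labels and from lymph nodes and spleens according to the protocol. The comparisons ask whether the peptides that these proteasomes make change the TCRs of CD8 T cells. TCR tables hold no Cd8a, Psmb8 or Psmb11 values, so neither the cell type nor the genotype could be checked against them.

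Each mouse had 1983032 to 8480570 TCRα reads from 14772 to 602397 unique molecules. The number of clonotypes per mouse was 2454, 5784, 15092 and 16876 in WT mice 1 to 4, and 22975, 5120, 24843, 6608 and 4390 in β5i-KO mice 1 to 5. It was 6444, 622, 7656 and 1661 in β5t-KO mice 1 to 4, and 26272, 9362, 18472 and 22895 in BIT mice 1, 2, 4 and 5. β5t-KO mice 2 and 4 held the fewest of the 17 mice. There were 75 to 773 long clonotypes in a β5t-KO mouse and 194 to 2499 in a mouse of the other genotypes, so these ranges overlapped. BIT mouse 3, with 455 clonotypes, 42 of them long, was set aside and entered as an alternative, and WT mouse 5 and β5t-KO mouse 5 were not used here.

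The CDR3α is the part of the TCRα chain that lies over the presented peptide. It is encoded by the 3′ end of a V gene, the 5′ end of a J gene and the nucleotides that terminal transferase inserts between them after both ends are trimmed, so its length follows the germline ends, the trimming and the inserts. Palindromic bases, which mirror the last bases of an untrimmed germline end, can be added as well. The TCRα locus rearranges repeatedly in the same thymocyte, moving towards V genes farther 5′ and J genes farther 3′.

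The long CDR3α found in the most mice are printed first, because the results on sharing and abundance turn on them. Each is named by its V and J genes and, for TRAJ32, by the residue after CALSD, and is given as the nucleotide form found in the most mice, 5′ to 3′, with the bases that the tables place up to the germline ends of V and J in lower case. Capitals mark every base between these ends, that is, inserted bases and the bases that the tables count to V or J although they lie past its germline end. The first 6 were the most widely found, in 16 mice for the first, 15 for the next 3 and 14 for the last 2. The last 3 are the longest sequences found in at least 3 mice.
TRAV12-1/TRAJ32 arginine: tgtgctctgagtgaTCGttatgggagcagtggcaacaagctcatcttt
TRAV12-1/TRAJ5: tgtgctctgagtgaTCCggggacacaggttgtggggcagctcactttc
TRAV12-1/TRAJ32 asparagine: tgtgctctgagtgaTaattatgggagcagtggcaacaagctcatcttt
TRAV16N/TRAJ37: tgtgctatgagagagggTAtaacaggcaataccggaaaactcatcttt
TRAV12-1/TRAJ4, 17 residues: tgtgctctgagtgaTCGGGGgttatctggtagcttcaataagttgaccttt
TRAV12-3/TRAJ32 leucine: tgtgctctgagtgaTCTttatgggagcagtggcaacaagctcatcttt
TRAV16N/TRAJ53, 18 residues: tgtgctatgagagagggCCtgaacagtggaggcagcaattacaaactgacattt
TRAV12-1/TRAJ4, 18 residues: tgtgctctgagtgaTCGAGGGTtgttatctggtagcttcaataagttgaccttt
TRAV12-1/TRAJ6, 18 residues: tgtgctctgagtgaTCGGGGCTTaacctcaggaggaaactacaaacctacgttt

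These 9 forms held 1 to 9 bases between the germline ends, the fewest in the TRAV12-1/TRAJ32 asparagine sequence and the most in the TRAV12-1/TRAJ6 sequence. In 4 of them the tables listed no insert, so that all the capitals were bases past a germline end. All 9 were assigned to a TRAV12 gene or to TRAV16N. Set against the germline ends printed next, where these hold the gene, the lower-case bases differed in 1 place, in the J part of the TRAV16N/TRAJ53 sequence. The TRAV12-1/TRAJ32 arginine sequence came in 17 nucleotide forms over the mice, and the TRAV12-1/TRAJ4 sequence of 17 residues in 22. The TRAV12-1/TRAJ6 sequence was found in 3 mice, all of them WT, and the other 18-residue sequences in 4 mice each. Each of these 3 WT mice held its own nucleotide form, so the TRAV12-1/TRAJ6 form printed was found in 1 mouse.

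The germline ends of some of the J and V genes named below are printed next, so that the part each can give to a CDR3α can be read off. Capitals mark the bases that lie inside the CDR3α, and the sequences are those of GENCODE vM39 transcripts on GRCm39, + strand of chromosome 14. The first 6 are J genes of long CDR3α, TRAJ31 and TRAJ13 are J genes almost without them, and the V gene ends follow. A large share of the clonotypes of TRAV15-1-DV6-1, TRDV2-2 and TRAV16N were long. TRAV12-1 gave the most long clonotypes, TRAV14-1 was called between genotypes and TRAV8N-2 gave few.
TRAJ2: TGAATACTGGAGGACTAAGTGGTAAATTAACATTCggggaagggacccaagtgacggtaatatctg
TRAJ53: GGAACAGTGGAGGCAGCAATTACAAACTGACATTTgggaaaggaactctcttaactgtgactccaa
TRAJ52: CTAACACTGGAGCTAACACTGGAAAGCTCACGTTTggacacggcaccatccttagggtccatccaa
TRAJ28: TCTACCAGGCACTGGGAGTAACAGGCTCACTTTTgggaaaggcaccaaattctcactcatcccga
TRAJ32: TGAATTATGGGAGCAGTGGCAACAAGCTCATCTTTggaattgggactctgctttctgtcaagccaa
TRAJ5: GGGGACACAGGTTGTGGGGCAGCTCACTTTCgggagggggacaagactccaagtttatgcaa
TRAJ31: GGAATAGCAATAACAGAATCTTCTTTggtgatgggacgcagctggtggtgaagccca
TRAJ13: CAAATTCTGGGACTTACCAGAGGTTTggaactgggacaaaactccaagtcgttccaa
TRAV15-1-DV6-1: gaaagtatttcTGTGCTCTCTGGGAGCTGG
TRDV2-2: gcgacgtatttcTGTGCTCTCATGGAGCGC
TRAV16N: agcagtatatttcTGTGCTATGAGAGAGGG
TRAV12-1: ctctgccctgtactacTGTGCTCTGAGTGA
TRAV14-1: actcagccacctacttcTGTGCAGCAAGTG
TRAV8N-2: acactgctgtgtacttcTGTGCTACTGATG

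In GRCm39 the J genes named lie at chr14:54455293-54455358 (TRAJ2), chr14:54400101-54400166 (TRAJ53), chr14:54402773-54402838 (TRAJ52), chr14:54429118-54429182 (TRAJ28), chr14:54423558-54423623 (TRAJ32) and chr14:54451234-54451295 (TRAJ5). TRAJ31 lies at chr14:54425352-54425408 and TRAJ13 at chr14:54443198-54443254. Of the V genes, TRAV15-1-DV6-1 lies at chr14:53797089-53797704, TRDV2-2 at chr14:54198401-54199059, TRAV16N at chr14:53588485-53589078, TRAV12-1 at chr14:53775648-53776195, TRAV14-1 at chr14:53791479-53792015 and TRAV8N-2 at chr14:53583347-53583881. The bases shown come from the coding ends of these gene segments.

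Long CDR3α were drawn from J genes with a long germline end. TRAJ2, TRAJ53, TRAJ52 and TRAJ32 each hold 35 germline nucleotides inside the CDR3, TRAJ28 holds 34 and TRAJ50 holds 32, whereas TRAJ13 and TRAJ31 hold 26. Pooled over the mice, 55.9% of TRAJ2 clonotypes were long, 43.4% of TRAJ53, 40.4% of TRAJ28, 39.7% of TRAJ52, 37.7% of TRAJ32 and 31.3% of TRAJ50. Of TRAJ13 clonotypes 0.616% were long, and of TRAJ31 clonotypes 0.365%. Over the 43 J genes with at least 200 clonotypes, the share of long clonotypes and the germline length went together (Pearson r 0.833, Spearman rho 0.880), given as a description across genes, which share libraries and are not independent replicates.

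TRAJ24 stood apart from that relation, with 16.3% long clonotypes at 25 germline nucleotides in the deposited tables. Its GENCODE transcript starts 7 bases farther 5′, which gives 32 nucleotides. TRAJ45, TRAJ47 and TRAJ57 likewise start 3, 2 and 2 bases farther 5′ in their transcripts. Clones with an untrimmed J part and a long enough insert were checked for these bases. The insert ended in all of them in 26.1% (TRAJ24), 24.4% (TRAJ45), 54.1% (TRAJ47) and 0% (TRAJ57) of such clones. It ended in the last of them in 99.7%, 74.9%, 95.5% and 20.7%, so the transcript lengths are borne out only in part. With the transcript lengths r was 0.865 and rho 0.937. In 38 of the 43 J genes the J part of the tables started at the first base of the transcript.

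The J genes of long and other clonotypes were set side by side in all 17 mice by edgeR's quasi-likelihood fit. The J part is a portion of the length that chose the long class, so the counts and fold changes are descriptions and nothing is read from them. Of 43 J genes, 41 (95.3%) differed at a Benjamini-Hochberg adjusted p under 0.05, 19 of them (44.2%) with a higher and 22 (51.2%) with a lower share among long clonotypes. The highest fold changes of long over other clonotypes were those of TRAJ2 (log2 fold change 3.62 ± 0.09, SE), TRAJ53 (2.90), TRAJ28 (2.73), TRAJ52 (2.67), TRAJ32 (2.57) and TRAJ50 (2.15). TRAJ2 took 4.60% of long clonotypes and 0.370% of other clonotypes, and TRAJ32, the J gene of 3 of the 6 most widely found sequences above, took 10.5% and 1.58%, both higher in 17 of 17 mice. The lowest were those of TRAJ31 (-4.78), TRAJ13 (-4.02), TRAJ43 (-3.97), TRAJ21 (-3.45), TRAJ47 (-3.31) and TRAJ33 (-3.28). TRAJ31 took 0.134% of long and 4.38% of other clonotypes and was higher among long clonotypes in 0 of 17 mice.

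The long CDR3α also used V genes with a long germline end. TRAV15-1-DV6-1 and TRAV15N-1 hold 19 germline nucleotides in the CDR3, TRDV2-2 holds 18 and TRAV16N holds 17, whereas TRAV12-1 holds 14 and TRAV8N-2 13. Of TRAV15-1-DV6-1 clonotypes 58.6% were long (202 of 345), of TRAV15N-1 56.7% (144 of 254), of TRDV2-2 56.2% (372 of 662) and of TRAV16N 34.8% (2219 of 6377). All 16 clonotypes of TRAV23, whose germline end holds 26 nucleotides, were long. Over 84 V genes with at least 200 clonotypes r was 0.752 and rho 0.682, again as a description across genes.

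**Figure D1:**
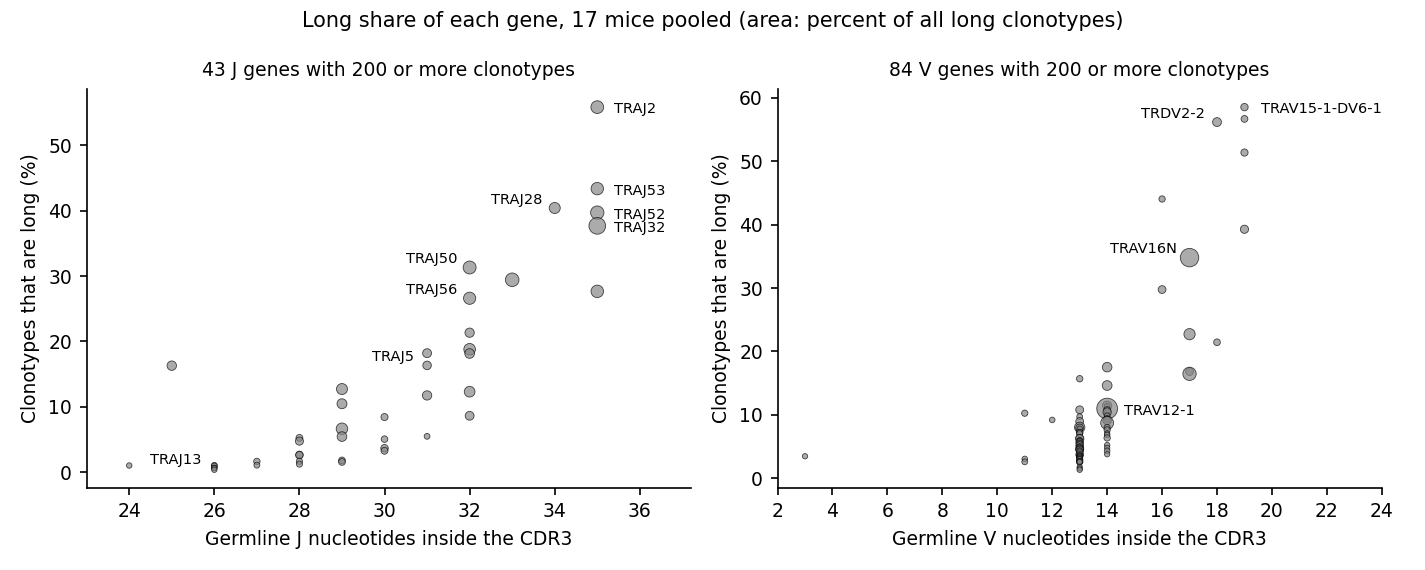
Percent of each gene's clonotypes that are long, 17 mice pooled, against the number of germline nucleotides that the gene holds inside the CDR3 in the deposited tables (left, 43 J genes; right, 84 V genes), with point area set by the gene's percent of all long clonotypes. J genes with 26 or fewer nucleotides lie near 0 except TRAJ24, the point at 25 nucleotides and 16.3%, and the J genes at 35 reach 55.9%.

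Of 93 V genes fitted by edgeR in the same way, and likewise as a description since the V part too belongs to the length, 71 (76.3%) differed between long and other clonotypes, 19 (20.4%) higher and 52 (55.9%) lower. With scaling by trimmed means the split was 27 higher and 38 lower, and with DESeq2 22 and 38. The highest fold changes of long over other clonotypes were those of TRAV15-1-DV6-1 (log2 fold change 3.74), TRDV2-2 (3.63), TRAV15N-1 (3.62), TRAV15-2-DV6-2 (3.33), TRAV15D-1-DV6D-1 (2.90) and TRDV2-1 (2.78). Several of these genes are dual-use genes, which can join either a TCRα or a TCRδ chain. V genes with DV in their name took 15.1% ± 2.98 (SD, n = 17) of long and 7.37% ± 0.856 of other clonotypes. TRDV genes meet this rule by name too, so the figure need not be that of dual-use genes alone. TRDV2-2 took 1.97% of long clonotypes, TRDV1 0.521% and TRDV2-1 0.217%. The lowest were those of TRAV8N-2 (-2.92), TRAV13N-3 (-2.64), TRAV8D-1 (-2.45), TRAV13D-4 (-2.11) and TRAV13D-2 (-1.96), beside TRAV12D-3, which had no long clonotype in any mouse.

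By number, the long clonotypes were led by TRAV12-1 and TRAV16N. TRAV12-1 supplied 2848 of them (15.6%) although only 10.97% of its 25966 clonotypes were long, and TRAV16N supplied 12.1%. TRAV16N took 11.5% of long and 2.25% of other clonotypes as a mean of mice (log2 fold change 2.37), higher in 17 of 17 mice. TRAV12-1 took 17.7% of long and 13.8% of other clonotypes (log2 fold change 0.31), higher in 16 of 17. The V gene of a clone is the first that the tables list. Of TRAV12-1 clones 85.3% listed several V genes, and of all long clones 35.7% did as a mean of mice.

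The beginnings of the protein sequences show the same genes. Long CDR3α began with CALSD, a start that TRAV12 genes can give, in 17.1% ± 2.91 (SD, n = 17) and other CDR3α in 6.79% ± 1.47. They began with CAMRE, a start that TRAV16 genes can give, in 12.99% ± 2.28 against 2.36% ± 0.338. Both were higher in 17 of 17 mice. Glycine made up 12.5% ± 0.231 of the residues of long and 9.41% ± 0.198 of those of other CDR3α.

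Most long CDR3α were just past the boundary. Of all clonotypes, those of 16 residues made up 6.39% ± 0.435 (SD) in the 4 WT mice, 6.80% ± 0.619 in the 5 β5i-KO mice, 8.49% ± 0.946 in the 4 β5t-KO mice and 6.93% ± 0.317 in the 4 BIT mice. Those of 17 residues made up 1.63% ± 0.205, 1.68% ± 0.206, 1.91% ± 0.237 and 1.83% ± 0.0672 in the same order. Those of 18 residues made up 0.260% ± 0.0744, 0.261% ± 0.0957, 0.428% ± 0.129 and 0.330% ± 0.0318. Each further residue thus cut the share several-fold in every genotype, and the mean length of long CDR3α was 16.3 residues in each.

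Clonotypes of 19 or more residues were rare, at 0.0472% ± 0.0322 (WT), 0.0539% ± 0.0310 (β5i-KO), 0.0351% ± 0.0411 (β5t-KO) and 0.0740% ± 0.00608 (BIT). Just below the boundary, clonotypes of 15 residues made up 16.04% ± 0.258 (WT), 16.2% ± 0.578 (β5i-KO), 17.1% ± 0.603 (β5t-KO) and 16.4% ± 0.415 (BIT). The 4 means at 15 residues lay closer together, relative to their size, than those at 16.

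**Figure D2:**
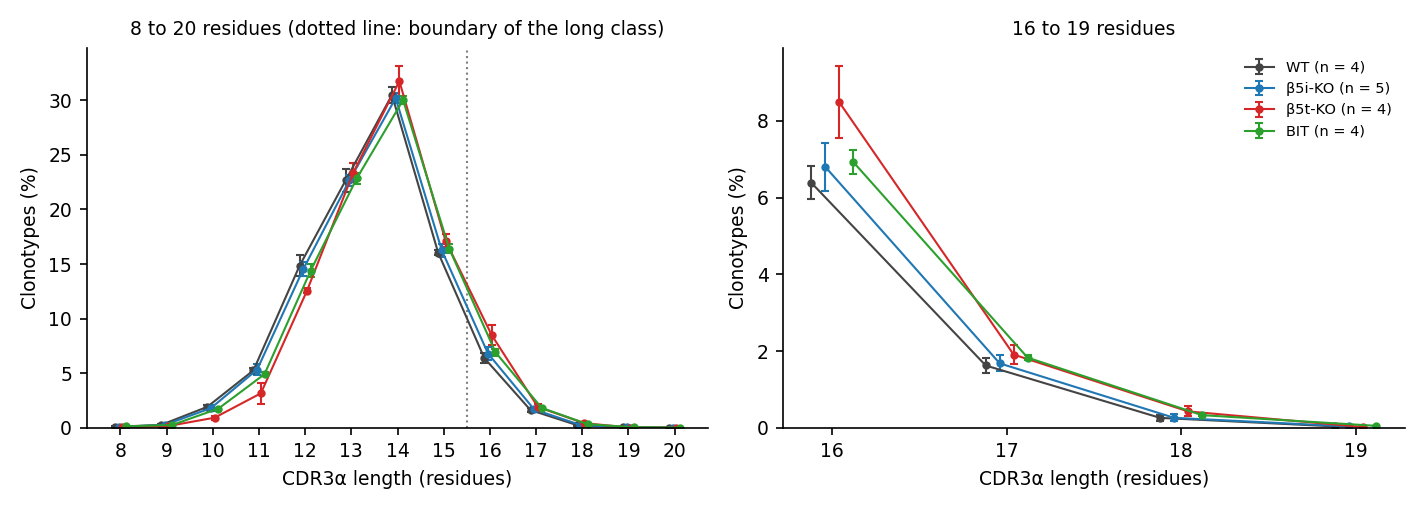
Percent of clonotypes at each CDR3α length in residues, as the mean and SD over mice of each genotype (left, 8 to 20 residues with the boundary of the long class dotted; right, 16 to 19). The β5t-KO curve lies above the others at 16 residues, with a mean of 8.49% against 6.39% to 6.93%, and below them at 10 to 12 residues.

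The share of long CDR3α was highest in β5t-KO mice. It was 7.91%, 7.57%, 8.76% and 9.05% of clonotypes in WT mice 1 to 4 and 9.82%, 8.03%, 9.75%, 8.44% and 7.95% in β5i-KO mice 1 to 5. It was 10.5%, 12.1%, 10.1% and 10.8% in β5t-KO mice 1 to 4 and 9.51%, 8.65%, 9.41% and 9.09% in BIT mice 1, 2, 4 and 5. Each of the 4 β5t-KO mice lay above all 13 other mice, while the other 3 genotypes overlapped.

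Means were 8.32% ± 0.70 (SD, WT), 8.80% ± 0.92 (β5i-KO), 10.9% ± 0.84 (β5t-KO) and 9.17% ± 0.39 (BIT). The β5t-KO mean was 2.54 percentage points above WT (exact permutation test, two-sided, p = 0.0286, adjusted p = 0.0714 over 5 comparisons). The BIT mean differed from the β5t-KO mean by -1.70 points (exact permutation test, p = 0.0286, adjusted p = 0.0714). The smallest p that 4 mice against 4 can give is 0.0286, and neither difference passed 0.05 after adjustment. With BIT mouse 3 included, BIT against β5t-KO mice gave -1.68 points (exact permutation test, p = 0.00794, adjusted p = 0.0397).

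The remaining comparisons did not pass before or after adjustment. β5i-KO mice differed from WT mice by 0.477 points (exact permutation test, p = 0.413), BIT from WT mice by 0.846 points (p = 0.114, exact) and BIT from β5i-KO mice by 0.369 points (p = 0.484, exact). Counted as distinct amino acid sequences instead of clonotypes, the difference of BIT from β5t-KO mice was -0.917 points (exact permutation test, adjusted p = 0.190).

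Depth moved with this share. Over the 13 mice that were not β5t-KO, the share of clonotypes that were long rose with the log10 number of clonotypes (r = 0.916, a description). The β5t-KO mice had the highest shares with 622 to 7656 clonotypes, a range that overlaps with that of the other mice. For the share of molecules in long clonotypes r was 0.151 in those 13 mice. Long clonotypes held 7.51% ± 0.441 of molecules (WT), 7.65% ± 0.544 (β5i-KO), 10.0% ± 0.618 (β5t-KO) and 7.44% ± 0.379 (BIT). By reads the means were 7.46% ± 0.398, 7.63% ± 0.415, 9.49% ± 0.147 and 7.61% ± 0.307 in the same order. The β5t-KO mice were thus 2.50 points above WT by molecules, and BIT mice differed from them by -2.57 points, whereas the BIT mean lay at the WT mean by this measure.

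When every mouse was thinned to 13519 molecules, long clonotypes made up 7.99% ± 0.472 (WT), 8.27% ± 0.533 (β5i-KO), 10.6% ± 0.62 (β5t-KO) and 8.30% ± 0.302 (BIT). The β5t-KO mean was the highest at this equal number of molecules too. The numbers of clonotypes were not made equal.

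**Figure D3:**
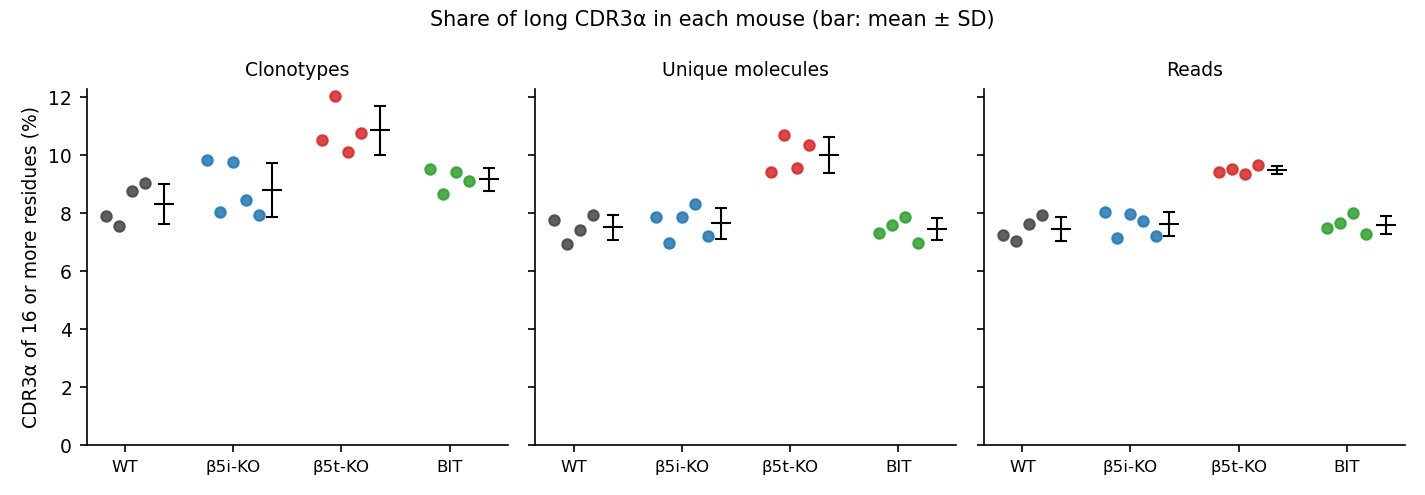
Percent of clonotypes (left), unique molecules (centre) and reads (right) with a CDR3α of 16 or more residues in each of 17 mice, 1 point per mouse, with the mean and SD of each genotype. The 4 β5t-KO mice sit at 10.1% to 12.1% of clonotypes and above every other mouse in all 3 panels.

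Among V genes of the long CDR3α, TRAV12-1 was called in 3 of the 5 comparisons between genotypes. It is one of the genes of the TRAV12 family and can give the CALSD start. Long TRAV12-1 clonotypes made up 1.92%, 1.35%, 1.53% and 1.78% of clonotypes in WT mice 1 to 4 (mean 1.64% ± 0.253) and 1.51%, 1.56%, 1.29%, 1.36% and 1.39% in β5i-KO mice 1 to 5 (1.42% ± 0.110). They made up 2.36%, 2.57%, 2.32% and 2.35% in β5t-KO mice 1 to 4 (2.40% ± 0.115) and 1.07%, 1.12%, 1.41% and 1.15% in BIT mice 1, 2, 4 and 5 (1.19% ± 0.151). Every β5t-KO mouse was above every other mouse, and the BIT mice overlapped with WT only at WT mouse 2.

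V gene use was tested by edgeR with each gene split into its long and its other clonotypes, 152 features in all, of which 60 were long. With both directions together, in no comparison were the long V features called more often than features in general. Between β5t-KO and WT mice 2 long features were called, TRAV12-1 and TRAV14-1, both higher, when 4.61% of all features were called (3.29% higher and 1.32% lower). Long TRAV12-1 rose, with a log2 fold change of 0.54 ± 0.14 (SE; edgeR adjusted p = 0.0143), whereas TRAV12-1 clonotypes of other lengths changed by -0.50 (adjusted p = 0.0109). The long call was lost with scaling by trimmed means (adjusted p = 0.0649), with DESeq2 (0.0981), as a share of long clonotypes (0.494), and without WT mouse 2 (0.0702), WT mouse 3 (0.0549), β5t-KO mouse 1 (0.0780) or β5t-KO mouse 3 (0.0507).

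Long TRAV14-1 clonotypes made up 0.122%, 0.0173%, 0.113% and 0.0889% of clonotypes in WT mice 1 to 4 and 0.217%, 0%, 0.300% and 0.421% in β5t-KO mice 1 to 4. The groups overlapped, since β5t-KO mouse 2, the library with the fewest clonotypes, held none. The fitted log2 fold change was 1.59 ± 0.41 (edgeR adjusted p = 0.0109), and TRAV14-1 clonotypes of other lengths rose too (0.82, adjusted p = 0.000265). The call was lost without WT mouse 4 (adjusted p = 0.0558) or β5t-KO mouse 3 (0.110).

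Between BIT and β5t-KO mice long TRAV12-1 was the 1 long feature called, when 3.29% of all features were called (0.658% higher and 2.63% lower). It fell by 0.99 ± 0.14 (edgeR log2 fold change -0.99, adjusted p = 7.08e-07), and its other lengths gave 0.04 (adjusted p = 0.891). This call was kept when any single mouse was left out (adjusted p 2.56e-07 to 4.61e-05). Long TRAV14-1 gave -1.12 (adjusted p = 0.0534).

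Between BIT and WT mice long TRAV12-1 was again the 1 long feature called, when 1.97% of all features were called, with a log2 fold change of -0.45 ± 0.13 (edgeR adjusted p = 0.0475). Its other lengths changed likewise (-0.47, adjusted p = 0.0213). The long call was lost without the filter on low counts (0.0555) and without WT mouse 1 (0.115), WT mouse 3 (0.0625), WT mouse 4 (0.145), BIT mouse 1 (0.269), BIT mouse 2 (0.127) or BIT mouse 5 (0.133).

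Between β5i-KO and WT mice 0 long V features were called by edgeR, when 0.658% of all features were, and 6 had an unadjusted p under 0.05. Between BIT and β5i-KO mice 0 were called as well, when 0% of all features were, and 1 had an unadjusted p under 0.05. DESeq2 called 0 long V features in both. Long TRAV12-1 gave -0.20 between β5i-KO and WT mice (edgeR adjusted p = 0.502).

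Among TRAV12-1 clonotypes themselves, the long share was 18.5%, 19.8%, 17.4% and 17.6% in β5t-KO mice 1 to 4, resting on 823, 81, 1021 and 221 clonotypes of which 152, 16, 178 and 39 were long. In the 13 other mice it was 7.34% to 12.4%, with means of 9.81% ± 1.87 in WT, 10.1% ± 1.68 in β5i-KO and 9.72% ± 0.776 in BIT mice. No β5t-KO mouse overlapped with another genotype. By molecules the β5t-KO mean was 16.005% ± 0.804 against 6.39% to 10.7% in the other mice. This measure was chosen after its values were seen and is given without a test.

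Because many TRAV12-1 clones list several V genes, the whole TRAV12 family was examined as well. Of its clonotypes 13.4%, 16.3%, 13.5% and 15.7% were long in β5t-KO mice 1 to 4, against 7.64% to 10.97% in the other 13 mice. TRAV12-1 took 22.1% ± 0.739 of the long clonotypes in β5t-KO, 19.8% ± 3.11 in WT, 16.3% ± 2.33 in β5i-KO and 12.9% ± 1.54 in BIT mice.

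Without TRAV12-1, the share of long clonotypes was 8.03% ± 0.599 (WT), 8.60% ± 0.85 (β5i-KO), 9.74% ± 0.837 (β5t-KO) and 9.09% ± 0.366 (BIT). The β5t-KO mean was then 1.71 points above WT (exact permutation test, p = 0.0286, adjusted p = 0.0714). BIT mice differed from β5t-KO mice by -0.651 points (exact permutation test, p = 0.229, adjusted p = 0.302), so the gap between them was less than that with TRAV12-1 included, and from WT mice by 1.06 points (exact permutation test, p = 0.0286, adjusted p = 0.0714).

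A few J genes of long CDR3α differed between β5t-KO and WT mice. J use was tested by edgeR over 82 features, 39 of them long. Between β5t-KO and WT mice 5 of the 39 long features were called, all higher, when 15.9% of all features were called (9.76% higher and 6.1% lower). With both directions together, the long features were thus not called more often than features in general. By direction, 5 of 39 long and 8 of all 82 features were called higher, whereas the 5 features called lower held no long one. The 5 were TRAJ28, TRAJ52, TRAJ5, TRAJ50 and TRAJ56, which hold 31 to 35 germline nucleotides in the CDR3. Long TRAJ32, the most used J gene among long clonotypes, was not called (1.21% ± 0.298 of clonotypes in β5t-KO, 0.977% ± 0.196 in WT, adjusted p = 0.544).

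Long TRAJ28 clonotypes made up 0.244%, 0.156%, 0.318% and 0.326% of clonotypes in WT mice 1 to 4 and 0.652%, 0.482%, 0.614% and 0.602% in β5t-KO mice 1 to 4. They made up 0.318%, 0.352%, 0.350%, 0.439% and 0.273% in β5i-KO mice 1 to 5 and 0.339%, 0.299%, 0.260% and 0.310% in BIT mice 1, 2, 4 and 5. All 4 β5t-KO mice were above all other mice. Some of these shares rest on few clonotypes. β5t-KO mice 1 to 4 held 42, 3, 47 and 10 long TRAJ28 clonotypes, and WT mice 1 to 4 held 6, 9, 48 and 55. TRAJ28 rose by 1.12 ± 0.22 on the log2 scale in β5t-KO against WT mice (edgeR adjusted p = 0.000785) and stayed called when any single mouse was left out (adjusted p 0.000928 to 0.00762), while TRAJ28 clonotypes of other lengths gave -0.57 (adjusted p = 0.117).

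Long TRAJ52 clonotypes made up 0.838%, 0.965%, 0.731% and 0.843% of clonotypes in β5t-KO mice 1 to 4 and 0.367%, 0.311%, 0.523% and 0.438% in WT mice 1 to 4. In the β5i-KO and BIT mice they ranged from 0.410% to 0.572%, below all β5t-KO mice. β5t-KO mice 1 to 4 held 54, 6, 56 and 14 long TRAJ52 clonotypes, and WT mice 1 to 4 held 9, 18, 79 and 74. TRAJ52 rose by 0.87 ± 0.19 (edgeR adjusted p = 0.00179), and its clonotypes of other lengths rose by as much (0.89, adjusted p = 0.000785).

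Long TRAJ5 clonotypes made up 0.295%, 0.482%, 0.379% and 0.421% in β5t-KO mice 1 to 4 and 0.0815%, 0.138%, 0.113% and 0.201% in WT mice 1 to 4. In the β5i-KO and BIT mice they ranged from 0.0456% to 0.206%, so no other mouse reached the β5t-KO mice. These shares rest on few clonotypes, 19, 3, 29 and 7 in β5t-KO mice 1 to 4. WT mice 1 to 4 held 2, 8, 17 and 34 long TRAJ5 clonotypes. TRAJ5 rose by 1.25 ± 0.29 (edgeR adjusted p = 0.00276), and its other lengths gave -0.14 (adjusted p = 0.737).

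Long TRAJ50 made up 0.788% ± 0.333 in β5t-KO and 0.396% ± 0.0888 in WT mice (log2 fold change 0.64 ± 0.20, edgeR adjusted p = 0.0264), and long TRAJ56 0.688% ± 0.298 and 0.310% ± 0.1201 (0.76 ± 0.24, adjusted p = 0.0264). For both genes β5t-KO mouse 2 was far above the rest, at 1.29% and 1.13%, which rest on 8 and 7 long clonotypes. The TRAJ50 call was lost with DESeq2 (adjusted p = 0.0556), as a share of long clonotypes (0.351), and without WT mouse 1 (0.0511), WT mouse 4 (0.115) or β5t-KO mouse 3 (0.0651). The TRAJ56 call was lost as a share of long clonotypes (0.267) and without WT mouse 1 (0.0511), WT mouse 2 (0.0516), WT mouse 4 (0.115), β5t-KO mouse 1 (0.101) or β5t-KO mouse 3 (0.0501). Without WT mouse 1, WT mouse 4 or β5t-KO mouse 3 the number of long J features called fell from 5 to 3.

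Between BIT and β5t-KO mice 3 of the same J genes were called among long clonotypes, all lower in BIT mice. Of all features 7.32% were called (2.44% higher and 4.88% lower), so with both directions together the long features were called about as often as features in general. By direction, 3 of the 4 features called lower were long, and neither of the 2 called higher was. Long TRAJ28 gave -1.02 ± 0.20 (edgeR adjusted p = 0.00160), TRAJ5 -1.05 ± 0.27 (adjusted p = 0.0101) and TRAJ52 -0.60 ± 0.17 (adjusted p = 0.0197). Both comparisons share the β5t-KO mice. The TRAJ5 call was lost without β5t-KO mouse 3 (adjusted p = 0.146). The TRAJ52 call was lost as a share of long clonotypes (0.0797), with at least 2 molecules a clone (0.0773) and without β5t-KO mouse 1 (0.127) or β5t-KO mouse 3 (0.0769). Without β5t-KO mouse 3 the count of long J features called was 1.

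In the other 3 comparisons 0 long J features were called by edgeR, when 0% of all features were called, and DESeq2 called 0. At an unadjusted p under 0.05 the counts were 1 (β5i-KO against WT), 2 (BIT against WT) and 1 (BIT against β5i-KO).

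The J genes were paired with different V genes. In β5t-KO mice long TRAJ28 clonotypes with TRAV12-1 made up 0.335% ± 0.133 of clonotypes against 0.0887% ± 0.00833 in WT mice, and with other V genes 0.252% against 0.172%. Long TRAJ5 clonotypes with TRAV12-1 made up 0.248% ± 0.164 against 0.0890% ± 0.0334, and with other V genes 0.147% against 0.0445%. With TRAV12-1 they stood at 0.124%, 0.482%, 0.144% and 0.241% in β5t-KO mice 1 to 4. The groups overlapped, since WT mouse 4 also stood at 0.124%. The 0.482% of β5t-KO mouse 2 was 3 clonotypes. For TRAJ52 almost all of the long clonotypes used other V genes, at 0.823% ± 0.113 in β5t-KO and 0.366% ± 0.0866 in WT mice. Among long TRAV12-1 clonotypes, TRAJ28 was 14.1% ± 5.93 in β5t-KO and 5.49% ± 0.898 in WT mice, whereas TRAJ32 was 13.4% and 14.9%. These V and J pairs are given without a test.

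**Figure D4:**
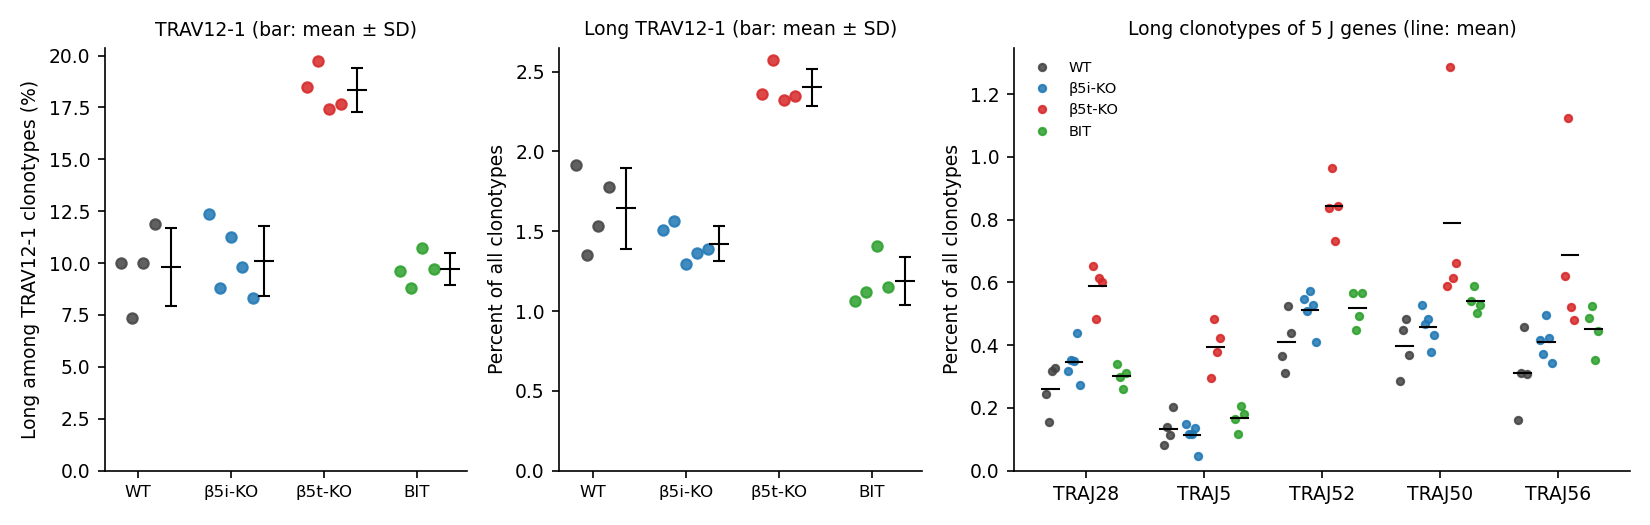
Long share of TRAV12-1 clonotypes (left), long TRAV12-1 clonotypes as a percent of all clonotypes (centre) and long clonotypes of 5 J genes as a percent of all clonotypes (right), 1 point per mouse, with the mean and SD (left, centre) or the mean (right). β5t-KO mice lie at 17.4% to 19.8% on the left against 7.34% to 12.4% in the other mice, and β5t-KO mouse 2 is the high point for TRAJ50 (1.29%) and TRAJ56 (1.13%).

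The J locus was also read by position. J genes from TRAJ61 to TRAJ41, the 5′ end of the locus, were used by 38.2% ± 4.41 (SD, n = 17) of long and 21.3% of other clonotypes. The middle of the locus was used by 37.1% ± 2.82 of long and 51.2% of other clonotypes, and the 3′ end by 24.7% ± 4.24 and 27.6%. The 5′ share of long clonotypes was 33.2% ± 3.57 (WT), 38.3% ± 0.816 (β5i-KO), 42.5% ± 4.75 (β5t-KO) and 38.9% ± 3.04 (BIT). Several J genes with long germline ends, such as TRAJ50, TRAJ52, TRAJ53 and TRAJ56, lie in that 5′ portion.

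Long CDR3α held more inserted nucleotides and had lost fewer germline bases than other CDR3α. In the tables the inserted nucleotides do not include bases past a germline end, which are counted to the V or J part. These parts add up to the length by which the sequences were chosen, so they are described without a test. Long clones held 3.51 ± 0.112 (SD, n = 17) inserted nucleotides and other clones 2.17 ± 0.0981. The V part was 14.6 ± 0.206 against 11.8 ± 0.192 nucleotides and the J part 30.7 ± 0.195 against 26.1 ± 0.1005. Long clones had lost 0.888 ± 0.0849 nucleotides from the V end and 1.76 ± 0.0822 from the J end, other clones 2.22 ± 0.165 and 3.02 ± 0.0846. As the tables divide them, the J part differed most in nucleotides and the insert least. Bases past a germline end were present in 60.5% ± 3.02 of long and 32.0% ± 2.25 of other clones, with a mean of 1.28 ± 0.0808 and 0.599 ± 0.0430 nucleotides. Over the 19455 long clones of all mice they mirrored the adjoining germline end, as palindromic bases do, in 89.1% of the clones with such bases at the V end and 87.7% of those with them at the J end. Inserted bases and bases past the ends together numbered 4.78 ± 0.0896 in long and 2.77 ± 0.0847 in other clones.

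Inserts of at least 6 nucleotides were present in 19.9% ± 1.87 of long and 6.52% ± 0.633 of other clones, and no listed insert in 15.1% ± 1.88 and 27.8% ± 2.38. Neither an insert nor a base past an end was present in 3.65% ± 0.875 of long and 15.96% ± 1.65 of other clones. The mean insert was 3.24 nucleotides at 16 residues, 4.08 at 17, 5.34 at 18 and 10.3 at 19 or more. For TRAJ24, TRAJ45 and TRAJ47 part of the listed insert equals the germline bases that the tables' J part leaves out. Long TRAJ24 clones (n = 459) listed a mean insert of 9.01 nucleotides and long TRAJ45 clones (n = 532) one of 5.20.

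By genotype the mean insert of long clones was 3.44 ± 0.172 nucleotides (WT), 3.56 ± 0.0914 (β5i-KO), 3.47 ± 0.0899 (β5t-KO) and 3.55 ± 0.0453 (BIT). None of the 5 comparisons passed (exact permutation tests, p 0.114 to 0.83, adjusted p 0.516 to 0.83). With the bases past the germline ends added the means were 4.75 ± 0.125 (WT), 4.84 ± 0.0875 (β5i-KO), 4.80 ± 0.0873 (β5t-KO) and 4.74 ± 0.0346 (BIT), and none passed either (exact permutation tests, adjusted p 0.397 to 0.857).

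Long CDR3α were found in more than 1 mouse less often than other CDR3α. Of the 13061 distinct long CDR3α, 10870 (83.2%) were found in 1 mouse, 1209 (9.26%) in 2, 653 (5.00%) in 3 or 4, 294 (2.25%) in 5 to 9 and 35 (0.268%) in 10 or more. None was found in all 17 mice. Of other CDR3α, 68.1% were found in 1 mouse, and 13 were found in all 17.

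Within a mouse, 40.96% ± 3.71 (SD, n = 17, range 34.9% to 46.4%) of its distinct long CDR3α were found in another mouse, against 67.9% ± 4.11 (61.6% to 73.3%) of its other CDR3α. The difference was -27.0 ± 2.22 percentage points, lower in 17 of 17 mice (sign-flip permutation test with 100000 resamples, p = 2e-05, the smallest it can give). The shared fraction of a mouse is counted against the other mice. The 17 differences are therefore not independent, although the test takes them as such. The shared long fraction was 42.7% ± 3.31 (WT), 40.9% ± 3.75 (β5i-KO), 43.5% ± 2.18 (β5t-KO) and 36.8% ± 1.51 (BIT), and the gap between long and other CDR3α did not pass a test between genotypes (exact permutation tests, adjusted p 0.218 to 0.743).

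The more mice held a long CDR3α, the fewer inserted nucleotides the tables listed for it. The mean insert was 4.51 nucleotides in sequences of 1 mouse, 2.78 of 2 mice, 2.37 of 3 or 4, 1.88 of 5 to 9 and 1.60 of 10 or more. The share without a listed insert was 8.41%, 16.5%, 20.01%, 27.9% and 34.1% in the same order. With the bases past the germline ends added the means were 5.72, 4.06, 3.64, 3.02 and 3.12 nucleotides, so that the last step did not continue the fall, and the share with no added base was 1.52%, 3.56%, 4.74%, 10.3% and 6.68%. TRAV12-1 supplied 12.4%, 16.4%, 20.4%, 22.4% and 52.4% of them, so that over 1 in 2 of the clones of the most widely found sequences used this gene. These are descriptions over clones that share mice.

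**Figure D5:**
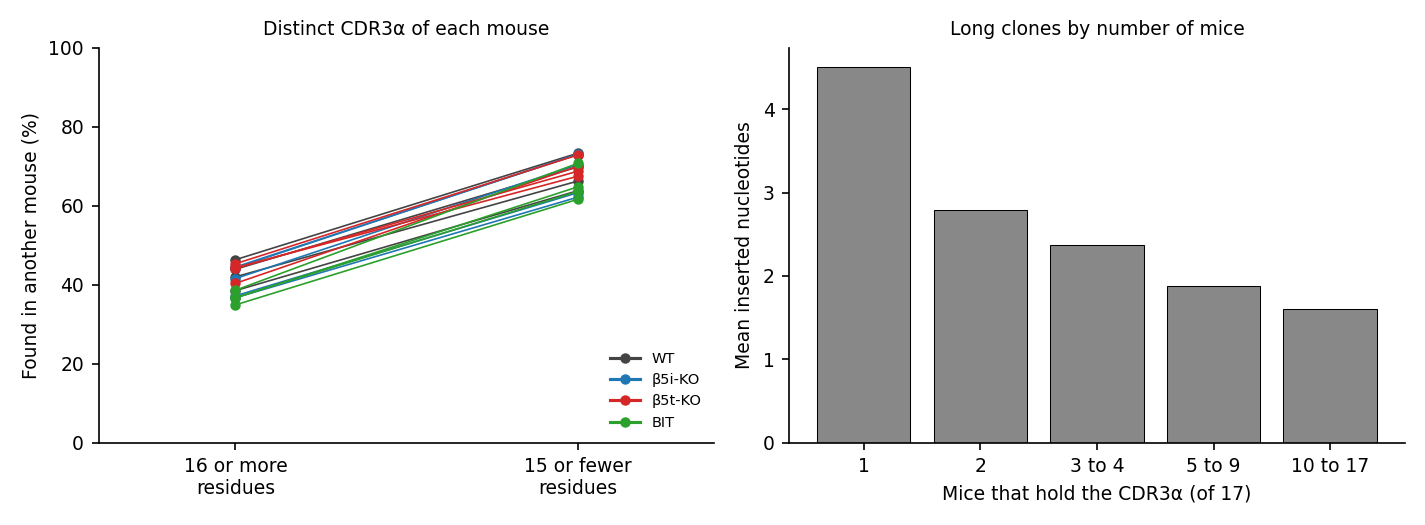
Left, percent of the distinct CDR3α of each mouse that were found in another of the 17 mice, for long and other CDR3α, 1 line per mouse. Right, mean number of inserted nucleotides that the tables list for long clones (bars) by the number of mice that hold the CDR3α, falling from 4.51 to 1.60.

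Long CDR3α found in at least 3 mice of a genotype numbered 43 (WT), 131 (β5i-KO), 15 (β5t-KO) and 171 (BIT), with no adjustment for the number of clonotypes or of mice, which differed. WT and BIT mice shared 27 of them (62.8% of the WT and 15.8% of the BIT sequences), WT and β5i-KO mice 18 (41.9% and 13.7%), and WT and β5t-KO mice 4 (9.30% and 26.7%). β5i-KO and BIT mice shared 51 (38.9% and 29.8%), β5i-KO and β5t-KO mice 7 (5.34% and 46.7%), and β5t-KO and BIT mice 9 (60.0% and 5.26%). There were 3 in all 4 genotypes.

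Weighed by reads, the long repertoires of WT, β5t-KO and BIT mice were on average more alike within a genotype than between genotypes. The Morisita–Horn index, which weighs shared sequences by their reads and runs from 0 to 1, had a mean of 0.326 within WT (range over pairs 0.169 to 0.547), 0.194 within β5i-KO (0.102 to 0.455), 0.319 within β5t-KO (0.137 to 0.625) and 0.281 within BIT mice (0.176 to 0.394). Between β5i-KO and WT mice it averaged 0.189, with 0.170 (β5t-KO against WT), 0.169 (BIT against WT), 0.183 (BIT against β5i-KO) and 0.114 (BIT against β5t-KO), the lowest of the 5. The mean within β5i-KO mice (0.194) was thus close to their means with WT (0.189) and BIT mice (0.183).

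The mean index within genotypes exceeded that between them by 0.186 for BIT and β5t-KO mice (exact permutation test, p = 0.0286, adjusted p = 0.0476), 0.152 for β5t-KO and WT mice (p = 0.0286, exact, adjusted p = 0.0476) and 0.134 for BIT and WT mice (p = 0.0286, exact, adjusted p = 0.0476). It exceeded it by 0.0548 for β5i-KO and WT mice (exact permutation p = 0.0476, adjusted p = 0.0476) and 0.0436 for BIT and β5i-KO mice (exact permutation p = 0.0397, adjusted p = 0.0476). With the Jaccard index, which counts shared sequences without their reads, 0 of the 5 passed (exact permutation, adjusted p 0.143 to 0.865).

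Leaving out 1 mouse kept the call in BIT against β5t-KO mice in each case. The call was lost in β5t-KO against WT mice without WT mouse 4 (exact permutation, adjusted p = 0.0714) and in BIT against WT mice without WT mouse 4 (adjusted p = 0.0661, exact). In β5i-KO against WT mice it was lost without WT mouse 1 or 2 (adjusted p = 0.482, exact permutation), WT mouse 3 (0.25), WT mouse 4 (0.214) or β5i-KO mouse 1, 3 or 4 (0.0571). In BIT against β5i-KO mice it was lost without β5i-KO mouse 1 or 3 (0.0571, exact permutation), BIT mouse 1 (0.357), BIT mouse 2 or 5 (0.339) or BIT mouse 4 (0.161).

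The abundance of single long CDR3α differed widely between mice. The sequences followed here were picked for how many mice held them or as the most abundant of a genotype. Such a pick favours a high level in that genotype, so the orders of genotypes and the p-values are descriptions. The TRAV12-1/TRAJ32 arginine sequence, the most widely found and the most abundant in β5t-KO mice, stood at 545, 717, 1598 and 611 reads per 1000000 in-frame TCRα reads (CPM) in WT mice 1 to 4 and at 5476, 2438, 3196 and 4087 CPM in β5t-KO mice 1 to 4. It stood at 167, 193, 213, 378 and 0 CPM in β5i-KO mice 1 to 5 and at 110, 99.4, 174 and 213 CPM in BIT mice 1, 2, 4 and 5. The β5t-KO mice were all above the WT mice, and the WT mice all above the β5i-KO and BIT mice. The log2 fold change was -4.67 ± 1.48 between BIT and β5t-KO mice (edgeR adjusted p = 0.0648), 2.13 between β5t-KO and WT mice (adjusted p = 0.264), -2.54 between BIT and WT mice (adjusted p = 0.296) and -2.19 between β5i-KO and WT mice (adjusted p = 0.374), so none passed.

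The TRAV12-1/TRAJ4 sequence of 17 residues, the most abundant long CDR3α of WT mice, showed another order. It stood at 1717, 2051, 1480 and 2823 CPM in WT mice 1 to 4, at 942, 392, 852, 482 and 326 CPM in β5i-KO mice 1 to 5, at 203, 0, 0 and 468 CPM in β5t-KO mice 1 to 4 and at 28.6, 0, 454 and 137 CPM in BIT mice 1, 2, 4 and 5. The WT mice lay above all others. The log2 fold change was -3.59 in β5t-KO (edgeR adjusted p = 0.0936) and -3.70 in BIT mice (adjusted p = 0.167) against WT mice.

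The TRAV12-1/TRAJ32 asparagine sequence was the most abundant long CDR3α of β5i-KO mice, at 378, 782, 398, 894 and 1476 CPM in mice 1 to 5. It stood at 264, 299, 128 and 270 CPM in WT mice, at 166, 0, 93.5 and 0 CPM in β5t-KO mice and at 165, 374, 299.8 and 272 CPM in BIT mice. The most abundant in BIT mice was the TRAV12-1/TRAJ5 sequence, at 605, 368, 827 and 1031 CPM, beside 125.6, 603, 714 and 936 CPM in WT mice, 178, 294, 336, 0 and 0 CPM in β5i-KO mice and 1696, 1916, 1861 and 1119 CPM in β5t-KO mice. All 5 β5i-KO mice thus lay above all other mice for the first, which was picked by its level in β5i-KO mice. The lowest of them stood at 378 CPM beside BIT mouse 2 at 374 CPM. For the second, the 4 β5t-KO mice lay above all others.

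Of the other sequences printed above, the TRAV16N/TRAJ37 sequence had a mean of 249 ± 71.0 CPM (WT), 308 ± 186 (β5i-KO), 92.8 ± 107 (β5t-KO) and 251 ± 91.7 (BIT). The TRAV12-3/TRAJ32 leucine sequence had 264 ± 142 CPM in WT, 560 ± 150 in β5i-KO and 202 ± 67.6 in BIT mice, and was present in 1 of 4 β5t-KO mice. The sequences were chosen for how many mice held them and for their abundance, so their levels are descriptions.

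Of 6015 recurring CDR3α, which reached 10 CPM in 3 or more mice of 1 genotype, 260 were long, and 0 of these 260 were called by edgeR in any of the 5 comparisons. Of all 6015 sequences 0.0166% were called between β5i-KO and WT mice, 0.0665% between β5t-KO and WT (0.0166% higher and 0.0499% lower), 0.0333% between BIT and WT, 0.0166% between BIT and β5i-KO and 0.0998% between BIT and β5t-KO mice (0.0499% in each direction). At an unadjusted edgeR p under 0.05 there were 73, 115, 72, 50 and 129 long sequences in the same order, and DESeq2 called 55, 112, 47, 27 and 119. A sequence could enter the fit through its level in 1 genotype alone. Differences between genotypes are thus partly built into the choice, and these counts are descriptions. Between BIT and β5t-KO mice edgeR itself called 109 with scaling by trimmed means and 86 with these genotypes alone, so the count for single sequences depended on the tool and its settings. The percents of all 6015 sequences above belong to the main edgeR fit. Those of the other settings are not given here, so nothing particular to long sequences is read from these counts.

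Long clonotypes held fewer molecules each. The log2 mean number of molecules per clonotype was lower for long than for other clonotypes by a difference of -0.21 ± 0.12 (SD, n = 17), in 17 of 17 mice (sign-flip permutation test, p = 2e-05, the smallest it can give). Between genotypes the gap differed most between BIT and β5t-KO mice (exact permutation test, p = 0.0286, adjusted p = 0.143).

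In-frame clones were last set beside out-of-frame clones, which encode no chain. CDR3α of at least 48 nucleotides made up 9.23% ± 1.25 of in-frame clones without a stop codon and 7.21% ± 1.401 of out-of-frame clones, a difference of 2.02 ± 1.42 points (SD, n = 17), higher in 16 of 17 mice (sign-flip permutation test, p = 3e-05). The direction turned with the boundary. In-frame lengths come in steps of 3 nucleotides and out-of-frame lengths lie between these steps. With out-of-frame clones of at least 47 nucleotides the difference was -4.38 points and with at least 46 it was -12.3 points (p = 2e-05 each, permutation), while at 51 nucleotides for both it was 0.305 points (p = 0.172, permutation). Against clones whose CDR3α holds a stop codon the in-frame share differed by -4.24 points (p = 0.124, permutation). Between genotypes the difference did not pass a test (exact permutation, adjusted p 0.25 to 0.914).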

How the data were processed

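TCRα clones of 17 mice were analysed, and TCRβ clones were not used here. Libraries were made by the authors with a SMARTer TCR profiling kit with unique molecular identifiers, and reads were assembled into clones with MiXCR. Its version and settings are not given in the sources used here, and the labels name mm10. The deposited tables give whole-number read and molecule counts per clone, with no normalization, and replicates were not pooled. Gene positions and germline ends are from GENCODE vM39 on GRCm39. The members and gene lists were chosen with earlier results of these data known.

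Clones were kept when the CDR3α held neither a frameshift nor a stop codon, and long clones had 16 or more residues. A clone that lists several V genes was given the first. Insert, V and J parts were read from the alignment reference points of the tables, whose V and J parts include bases past the germline ends. CPM are reads per 1000000 in-frame TCRα reads. V and J genes were tested as clonotype counts and recurring sequences as read counts by the quasi-likelihood test of edgeR 4.0.16 in R 4.3.3, scaled by library size, with all 4 genotypes in 1 fit, at least 5 clonotypes in at least 4 libraries for genes and Benjamini-Hochberg adjustment over all features of the table at a threshold of 0.05. DESeq2 1.42.0 was an alternative. Differences of means were tested by exact permutation, two-sided, adjusted over the 5 comparisons of a family. Paired differences over the 17 mice were tested by flipping signs in 100000 resamples. Thinning used 10 draws. Python 3.11.15, numpy 2.4.6, pandas 2.3.3, scipy 1.17.1 and matplotlib 3.10.9 were used. Scripts were tested on simulated data.

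The text names V and J genes called between genotypes (at most the 5 with the smallest p), the 6 with the largest fold in each direction between long and other clonotypes, and the sequences held by the most mice (up to 6), the most abundant of each genotype and the longest held by at least 3 mice. Any further gene or sequence named was chosen once its values were known. The labels do not say whether mice share litters or batches, so p-values measure the spread between these mice. Reads of 0 of 28 library pairs within genotypes were identical. Alternatives included scaling, filters, molecules, thinning, gene families and leaving out each mouse. Those with common V or J gene use, without TRAV12-1, without TRAJ24, TRAJ45 and TRAJ47, with CDR3α from cysteine to phenylalanine or tryptophan only, with out-of-frame clones from 47 or 46 nucleotides and with bases past the germline ends counted as inserted were chosen after seeing the data.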

Additional observations from a re-analysis of the deposited data

Results flagged for a closer look

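Of 88 groups of values of 4 or 5 mice examined, 4 held 1 mouse far from the others of its genotype, and chance sets 1 mouse apart in about 1 of 20 such groups. In β5i-KO mouse 4, 0.0% of clonotypes had 19 or more residues, against 0.0586% to 0.0783% in the other β5i-KO mice. In WT mouse 3, 14.6% of long clones held no insert, against 13.4% to 13.5% in the other WT mice. In β5t-KO mouse 2, long TRAV12-1 clonotypes made up 2.57% of clonotypes, against 2.32% to 2.36% in the other β5t-KO mice, and long TRAJ50 clonotypes made up 1.29%, against 0.590% to 0.662%. β5t-KO mouse 2 had the fewest clonotypes of the 17 mice, at 622. Of 15 differences between genotypes in the gap between long and other CDR3α, 0 had an adjusted p under 0.05 (exact permutation tests).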

How the results depend on the processing

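The share of long CDR3α kept its direction and side of the threshold in 58 of 63 other settings. The exceptions were BIT against WT mice by molecules (-0.0686 points), BIT against β5i-KO mice by molecules (-0.208), by reads (-0.0194) and with common J genes (-0.0206), and BIT against β5t-KO mice with BIT 3 included (-1.68). Without each mouse in turn the share differed by 0.222 to 0.720 points (β5i-KO against WT), 2.14 to 2.80 (β5t-KO against WT), 0.597 to 1.09 (BIT against WT), 0.157 to 0.624 (BIT against β5i-KO) and -1.95 to -1.30 (BIT against β5t-KO).

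Insert differences, none of which passed a test between genotypes, turned for β5t-KO against WT mice with at least 2 molecules a clone (-0.0199 nucleotides), weighted by molecules (-0.111), and without WT mouse 1 (-0.0161), WT mouse 2 (-0.0281) or β5t-KO mouse 2 (-0.00119). They turned for BIT against β5i-KO mice with at least 2 molecules (0.0344), weighted by molecules (0.0121), without TRAJ24, TRAJ45 and TRAJ47 (0.00628), and without β5i-KO mouse 1 (0.0167) or BIT mouse 4 (0.00915). BIT against β5t-KO mice turned at 17 or more residues (-0.0964). With bases past the germline ends counted as inserted BIT against WT mice gave -0.0138 and BIT against β5t-KO mice -0.0544, and with BIT 3 included BIT against WT mice gave -0.123 and BIT against β5t-KO mice -0.149. Leaving out each mouse gave 0.0689 to 0.187 (β5i-KO against WT), -0.0281 to 0.0896 (β5t-KO against WT), 0.0568 to 0.174 (BIT against WT), -0.0429 to 0.0167 (BIT against β5i-KO) and 0.0425 to 0.112 (BIT against β5t-KO).

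Similarity within minus between genotypes by the Jaccard index was -0.000764 (β5i-KO and WT), 0.00414 (β5t-KO and WT), 0.00360 (BIT and WT), -0.000517 (BIT and β5i-KO) and 0.0147 (BIT and β5t-KO). Leaving out each mouse gave 0.0281 to 0.0787, 0.118 to 0.178, 0.115 to 0.159, 0.0265 to 0.0606 and 0.156 to 0.208 by Morisita–Horn, in the same order. The in-frame minus out-of-frame share was 0.305 points at 51 nucleotides, -4.38 and -12.3 with out-of-frame clones from 47 and 46 nucleotides, -4.24 against clones with a stop codon, and 1.87 to 2.16 without each mouse.

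Long V features called between β5i-KO and WT mice numbered 1 with trimmed means and 1 as a share of long clonotypes, and between β5t-KO and WT mice 1 with trimmed means and 1 with DESeq2. Between BIT and WT mice they numbered 0 without the filter, 2 with at least 2 molecules, 3 with these genotypes alone and 0 by gene family. Between BIT and β5t-KO mice they numbered 2 with trimmed means, DESeq2, no filter, at least 2 molecules or BIT 3 included, 4 by nucleotide clones or with these genotypes alone, and 3 by gene family. Long against other clonotypes differed in 18 gene families. Without each mouse the counts were 0 to 1 (β5i-KO against WT), 0 to 2 (β5t-KO against WT), 0 to 2 (BIT against WT), 1 to 2 (BIT against β5t-KO) and 68 to 72 (long against other). The β5t-KO against WT count was 1 without WT mouse 3, WT mouse 4 or β5t-KO mouse 1, and 0 without β5t-KO mouse 3. TRAV12D-3, without a long clonotype, was fitted at 0.352 by DESeq2 (adjusted p = 0.810).

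For J genes, BIT against WT mice gave 1 call as a share of long clonotypes, and leaving out each mouse gave 3 to 5 (β5t-KO against WT), 1 to 3 (BIT against β5t-KO) and 40 to 41 (long against other). For recurring long sequences, DESeq2 called 55, 112, 47, 27 and 119 in the order β5i-KO, β5t-KO and BIT against WT, BIT against β5i-KO and BIT against β5t-KO. With the compared genotypes alone edgeR called 1 in β5i-KO against WT, 1 in BIT against WT, 1 in BIT against β5i-KO and 86 in BIT against β5t-KO mice. In BIT against β5t-KO mice it called 109 with trimmed means, 2 by molecules and 0 to 2 without each mouse, the 2 without β5t-KO mouse 2. All these counts of sequences are descriptions, given without the share of all recurring sequences called in the same setting. The causes were not tested.

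Mouse numbers did not pair the mice, as read from deviations in V gene use of long and other clonotypes together. Over 22 pairs with the same number their correlation was -0.267 to 0.204 (median 0.00551), 5 of them over 0.1. Over 86 pairs with different numbers it was -0.230 to 0.310 (median 0.00943), 20 of them over 0.1. With mouse number as a block, similarity was 0.0672, 0.152, 0.122, 0.0606 and 0.165 in the order above, with exact permutation adjusted p 0.208 to 0.250, where fewer relabellings are possible, and the share of long CDR3α had adjusted p 0.312 to 0.375. In edgeR fits with the block, long TRAV12-1 in BIT against WT mice (adjusted p = 0.0535), TRAJ50 in β5t-KO against WT mice (0.0598) and TRAJ52 in BIT against β5t-KO mice (0.0924) were not called, and no other result fitted with the block changed its call. Depth limits β5t-KO mouse 2 most by clonotypes, with 75 long ones.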
